A study of Rattus norvegicus with 3 samples.

Results

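The 26S proteasome is the protease that degrades proteins tagged with ubiquitin. Its barrel-shaped 20S core is built of alpha-subunit rings, which gate the entrance, and beta-subunit rings, which hold the catalytic sites. The 19S regulatory particle on its end recognises, deubiquitinates, unfolds and feeds in the substrate. In kidney tubules, as in other cells, this machinery clears misfolded and oxidised proteins, and under interferon part of it is exchanged for immunoproteasome subunits that favour peptides for class I histocompatibility molecules. The genes described here are the constitutive proteasome genes of the rat. They were taken as all genes of the array whose single platform symbol begins with Psma to Psmg, leaving out the immunoproteasome genes Psmb8, Psmb9, Psmb10, Psme1 and Psme2. This gave 41 of the 14217 genes named on the array, taken by symbol, though earlier results of these data were known. They comprised 7 alpha-ring subunits, 6 constitutive beta-ring subunits, 6 ATPases and 11 other subunits of the regulatory particle. The remaining 11 were 3 assembly factors of the regulatory particle's base, 4 assembly factors of the core, the alternative cap Psme4, the inhibitor Psmf1, and 2 genes that share only the prefix of the name, Psmc3ip and Psme3ip1. Of 31 core 26S subunits sought, 30 were found, and Psmb6 had no probe set of its own symbol alone. Psme3 was in the same position and was not analysed here.

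The study used donor kidneys of male Wistar rats weighing 370 to 508 g. Every kidney had 20 min of warm ischaemia and an average of 17 h in cold University of Wisconsin solution, and was then perfused from the femoral artery of a live recipient for an average of 5 h 43 min. Recipients were infused with normal saline at 1 ml/h (control), with heparin, a sulfated glycosaminoglycan, at 100 U/ml/h, or with peptide 2, at 0.5 mg/ml, whose sequence derives from the part of the chemokine CCL5 that binds heparin, in groups of 7. RNA of the 3 kidneys with the best RNA in each group was pooled and read on 1 Affymetrix rat array per group, so there are 3 arrays in all and no untouched kidney. The study asked whether either treatment had anti-inflammatory effects.

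No replicate array exists, so no difference below has a test, a standard error or a replicate SD. A gene was called measured in a comparison when both arrays read at least their own overall median, a value of 4.13 on the control, 4.15 on the heparin and 4.13 on the peptide array (log2 units). Of 12 kidney segment markers 11 were found, and all 11 were at or above the median on each array, whereas 0 of 6 skeletal muscle markers found were. The kidney markers differed by -1.83 to 0.74 between heparin and control, and by -0.22 to 0.36 between peptide and control. With heparin 1 was at least 1.5-fold higher and 1 lower, where 3.06% and 3.36% of all measured genes were. The 11 leukocyte markers found had a summed level (log2 of the summed unlogged values) of 14.60 in control, 14.82 in heparin and 14.77 in peptide, with 9 of the 11 at or above the median and the B cell marker Ms4a1 at the lowest array value on all 3 arrays. The summed level of 6 platelet markers was 10.57, 9.75 and 9.76, with Gp9 at the lowest value on all 3 arrays. All 4 platelet markers measured were at least 1.5-fold lower than control with heparin (3.36% of all measured genes) and 3 with peptide (0.916%). The summed level of 4 red cell markers was 14.91, 14.67 and 14.85, and their highest value alone was 14.86, 14.63 and 14.80. They differed by -1.13 to 0.998 between heparin and control, and by -0.34 to 0.57 between peptide and control. In heparin 1 of them was at least 1.5-fold higher than in control (3.06% of all measured genes) and 1 lower (3.36%). The 4 endothelial markers found, all above the median, had a summed level of 11.41, 11.75 and 11.16. Of the 4, 3 were at least 1.2-fold higher in heparin than in control (7.98% of all measured genes) and 3 than in peptide (7.35%). The gap between the 3' and 5' control probe sets of beta-actin was 2.33 in control, 2.95 in heparin and 2.34 in peptide. That of GAPDH was 0.36, 0.32 and 0.37 and that of hexokinase 2.18, 2.18 and 2.28, so only beta-actin of these 3 transcripts had a wider gap in heparin than in control. The part of cell makeup or RNA quality in the values below was not tested, and in whole kidney fewer cells of a type and less RNA per cell cannot be told apart.

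Like most measured genes, the constitutive proteasome genes were less than 1.5-fold apart across the 3 pools. Of the 41 members, 40 were measured in all comparisons, and 0 of the 40 were 1.5-fold or more apart (0.585 on the log2 scale) in any of them. Among all measured genes 6.42% were that far apart between heparin and control, 3.04% between peptide and control and 6.21% between heparin and peptide. At those shares 2.57, 1.22 and 2.48 of 40 genes would have been, so the count of 0 lies close to the background. By direction the shares of all genes were 3.06% higher and 3.36% lower for heparin against control, 2.12% and 0.916% for peptide against control, and 1.63% and 4.57% for heparin against peptide. With each gene read from its probe set of highest mean, the widest spans over the 3 arrays were 0.40. They were those of Psmd8 and Psmd3, subunits of the lid of the regulatory particle. Further measured probe sets were wider apart, with -0.47 between heparin and control for Psmc6 and -0.45 between heparin and peptide for Psme4. The member that was not measured, Psmc3ip, encodes a factor of meiotic recombination and read 3.64 on every array, below the median.

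A lower fold shows more of the spread. At 1.2-fold, 7 of the 40 members (17.5%) were apart between heparin and control against 22.1% of all measured genes, 3 of them higher (7.98% of all genes) and 4 lower (14.1%). Of the 3, 1 was Psme3ip1, which shares only the prefix, so the 30 core 26S subunits gave 2 higher and 4 lower. The split of the 40 was 3 and 1 after quantile normalization, 1 and 4 after median centring, and 1 and 3 with 32 added to the unlogged values. Shares of all genes at 1.2-fold were not counted under these settings. Between peptide and control it was 0 of 40 against 13% of all genes (8.17% higher and 4.82% lower), where that share of 40 genes would be 5.20. Between heparin and peptide it was 5 of 40 (12.5%) against 24.2%, with 1 higher (7.35% of all genes) and 4 lower (16.8%), or 2 and 3 after quantile normalization. Genes with a mean signal close to the members' own, taken as the 1386 other measured genes inside the interquartile range of the members' 3-array means, were 1.2-fold apart in 22.1%, 13.9% and 25% of cases in the same order. The median absolute difference between heparin and control was 0.060 for the members, 0.081 for all measured genes and 0.11 for those of similar signal. Between peptide and control these medians were 0.050, 0.034 and 0.064, and between heparin and peptide 0.087, 0.084 and 0.12. In both, the members lay above the median of all genes and below that of genes of similar signal. The signed median of the members was 0.00 in each of the 3 comparisons, as was that of all measured genes.

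**Figure D1:**
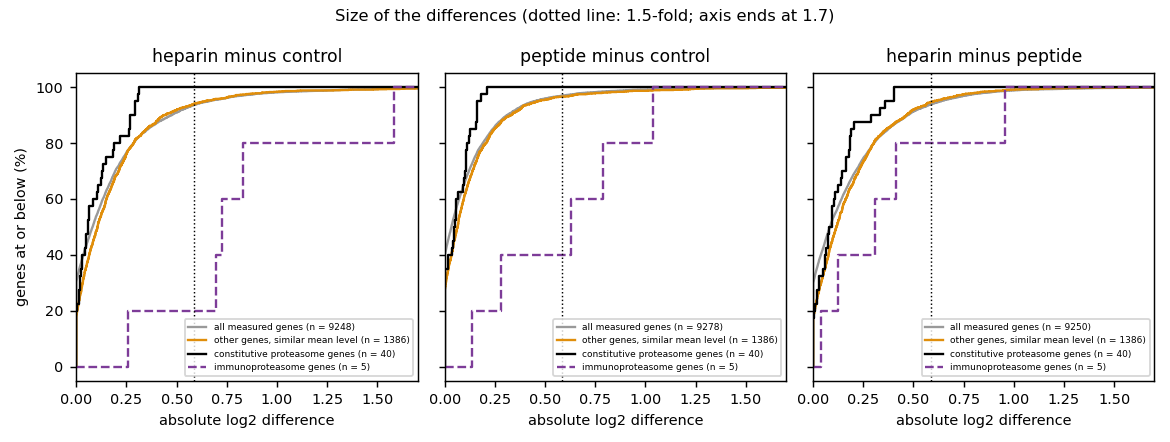
Share of genes (%, vertical axis) whose absolute log2 difference between 2 arrays is at or below the value on the horizontal axis, for all measured genes, other genes of similar mean signal, the 40 measured constitutive proteasome genes and the 5 immunoproteasome genes. The black member curve reaches 100% at 0.31 for heparin minus control, 0.21 for peptide minus control and 0.40 for heparin minus peptide, each short of the dotted 1.5-fold line, which most immunoproteasome genes pass in the first 2 panels.

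An exact tie between arrays is frequent in these values and does not show equal abundance, since it can come from the way the probe sets were summarised. Psma5, Psmd1, Psmd2, Psmd4 and Psmd13 had the same value on all 3 arrays, which is 5 of 40 members (12.5%) against 22.4% of all 9243 genes measured on the 3 arrays and 12.5% of those of similar signal. Between heparin and control 17 members were higher, 16 lower and 7 identical, whereas of all measured genes 25.8% were higher, 44.2% lower and 30.1% identical. Between peptide and control 17 were higher, 9 lower and 14 identical, against 32%, 28.5% and 39.5%. These splits depend on the scale: after quantile normalization 31 members were higher and 9 lower in heparin than in control, and 17 higher and 23 lower in peptide. After centring each array on its median the splits were 16 and 24 for heparin and 31 and 9 for peptide. The median of all measured genes moved as well. After quantile normalization it was 0.033 for heparin and -0.0098 for peptide, where that of the members was 0.041 and -0.011. After centring, both medians were -0.020 for heparin and 0.0007 for peptide. Shares of all genes by direction were not counted on these scales, here or below, so such splits do not set the members apart. Counts by direction below therefore describe the deposited scale.

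**Figure D2:**
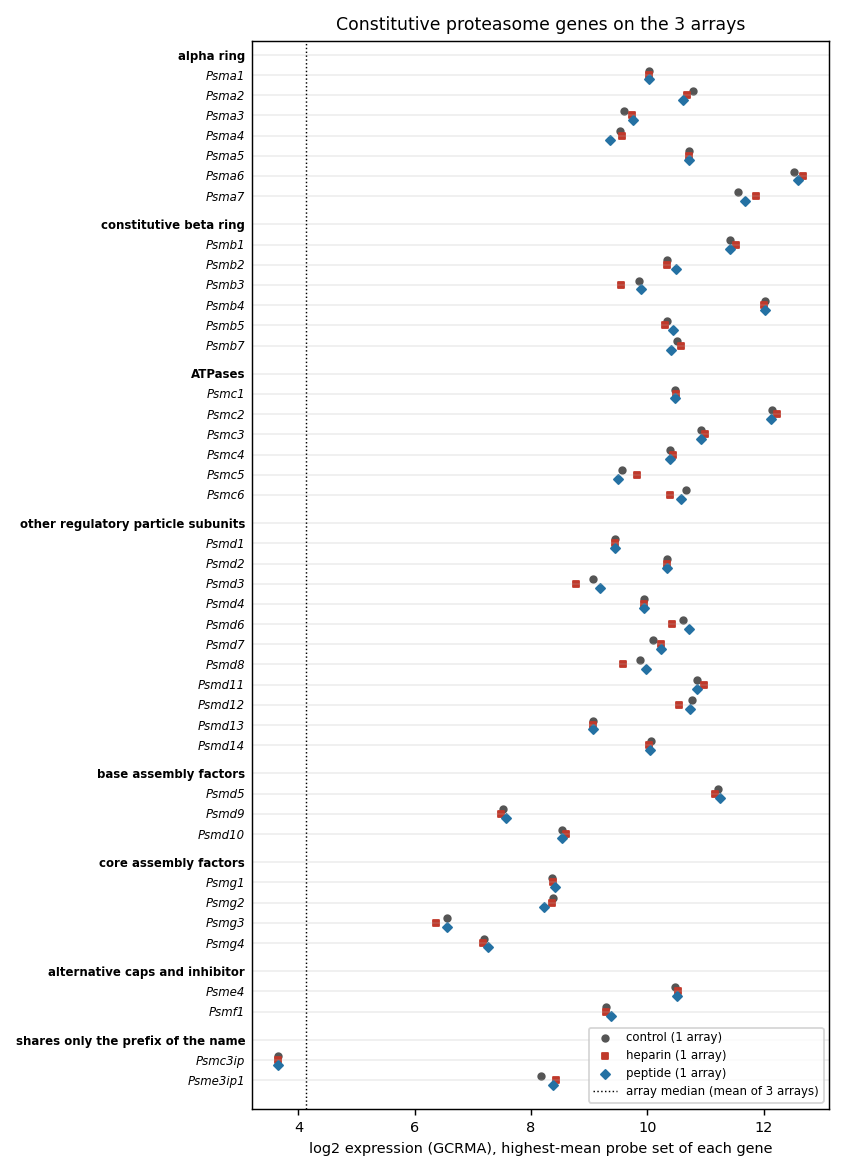
Log2 expression (horizontal axis) of each of the 41 constitutive proteasome genes, grouped by role, on the control, heparin and peptide array (1 array each), with the array median dotted. For each gene the 3 points lie within 0.40 of each other, and Psmc3ip alone is left of the dotted line; positions of different genes are not comparable because each has its own probes.

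The alpha ring forms the gate of the core. Psma7 read 11.56 in control, 11.87 in heparin and 11.68 in peptide, so heparin was 0.31 above control, the highest difference of any member in that comparison. Psma4 read 9.52, 9.57 and 9.36, lowest in the peptide pool. Psma2 read 10.79, 10.69 and 10.61, and its difference of -0.18 between peptide and control was the most negative of any member in that comparison. Psma3 was higher in both treated pools, with 9.60 in control, 9.73 in heparin and 9.76 in peptide, and Psma6 likewise with 12.53, 12.68 and 12.59. Psma1 differed by 0.0005 between its highest and lowest array, at 10.03, and Psma5 was at 10.72 on each array. Between heparin and control 4 of the 7 ring genes were higher, 2 lower and 1 identical, against 25.8%, 44.2% and 30.1% of all measured genes. These shares hold for the deposited scale only. The ring split was 6 higher and 1 lower after quantile normalization, which moved the median of all genes to 0.033. After median centring it was 4 and 3.

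The beta ring carries the proteolytic sites. Psmb5, the chymotrypsin-like subunit, read 10.33 in control, 10.31 in heparin and 10.44 in peptide. Psmb7, the trypsin-like subunit, read 10.52, 10.58 and 10.41. Psmb5 was thus highest with peptide and Psmb7 with heparin, with spans of 0.14 and 0.16 over the 3 arrays. After quantile normalization Psmb5 too was higher in heparin than in control, by 0.015. The third catalytic gene, Psmb6, was not analysed here. Among the non-catalytic subunits Psmb3 had the widest span: 9.85 in control, 9.54 in heparin and 9.90 in peptide. Its difference between heparin and control, -0.31, was the most negative of any member. Psmb2 read 10.34 in control and heparin and 10.50 in peptide, Psmb1 11.42 in control and peptide and 11.52 in heparin, and Psmb4 differed by at most 0.0061 across arrays around 12.02.

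The ATPases Psmc1 to Psmc6 form the ring that unfolds substrates. Of these 6 genes 5 were higher in heparin than in control, 4 of them by between 0.019 and 0.084 (4 of 6 were higher after median centring). On the deposited scale 25.8% of all measured genes were higher and 44.2% lower in that comparison. Psmc5 stood apart from those 4, at 9.56 in control, 9.83 in heparin and 9.50 in peptide, a difference of 0.26 between heparin and control and 0.33 between heparin and peptide. Psmc6 went the other way, with 10.66 in control, 10.40 in heparin and 10.57 in peptide. Psmc5 and Psmc6, and outside this ring Psme3ip1, lay just past 1.2-fold (0.263 on the log2 scale) in heparin against control. Their place in the 1.2-fold count is therefore narrow. In peptide against control 0 of the 6 were higher, 3 were lower by at most 0.090 and 3 were identical (3 higher and 3 lower after median centring, 0 higher and 6 lower after quantile normalization). On the deposited scale 32% of all genes were higher, 28.5% lower and 39.5% identical.

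The other subunits of the regulatory particle bind ubiquitin, cut it off the substrate or build the scaffold. Of these 11 genes 5 were lower, 2 higher and 4 identical between heparin and control, against 44.2%, 25.8% and 30.1% of all measured genes. Between heparin and peptide 5 were lower, against 43.7% of all genes, so both counts lie close to the background. After quantile normalization 4 were lower and 7 higher in both comparisons. On the deposited scale a few of them were lower in the heparin pool than in both other pools. Psmd8, of the lid, read 9.87 in control, 9.58 in heparin and 9.98 in peptide, and Psmd3, also of the lid, read 9.08, 8.78 and 9.18. Psmd6 read 10.61, 10.42 and 10.71, and Psmd12 10.77, 10.55 and 10.73. Heparin was below peptide by 0.40 for Psmd8 and Psmd3, 0.29 for Psmd6 and 0.18 for Psmd12, all lid subunits. Sem1, a small lid subunit outside the Psm names, read 10.74, 10.34 and 10.92, in the same order as Psmd3, Psmd6 and Psmd8. Psmd14, the lid deubiquitinase that frees ubiquitin from substrates, was also lowest in heparin, but its span was 0.029. Higher in heparin than in control were the lid subunits Psmd11, at 10.85, 10.98 and 10.85, and Psmd7, at 10.10, 10.23 and 10.23. Psmd13, also of the lid, was identical on the 3 arrays at 9.06. The scaffold subunits Psmd1 and Psmd2 and the ubiquitin receptor Psmd4 were each identical on the 3 arrays, at 9.44, 10.33 and 9.94.

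Assembly factors and alternative regulators spanned at most 0.19 over the arrays. Psmd5, Psmd9 and Psmd10, chaperones of the base, spanned 0.094, 0.074 and 0.064 over the arrays. Of the core chaperones, Psmg3 read 6.55 in control, 6.36 in heparin and 6.55 in peptide, and Psmg2 read 8.38, 8.36 and 8.22. Psmg1 and Psmg4 spanned 0.056 and 0.073. Psme4, the cap PA200, read 10.47, 10.53 and 10.51, and Psmf1, the inhibitor PI31, read 9.28, 9.28 and 9.38. Psme3ip1, which is no proteasome subunit, read 8.17, 8.44 and 8.38, a difference of 0.27 for heparin and 0.21 for peptide against control. That 0.21 was the highest value of any member in the peptide comparison.

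**Figure D3:**
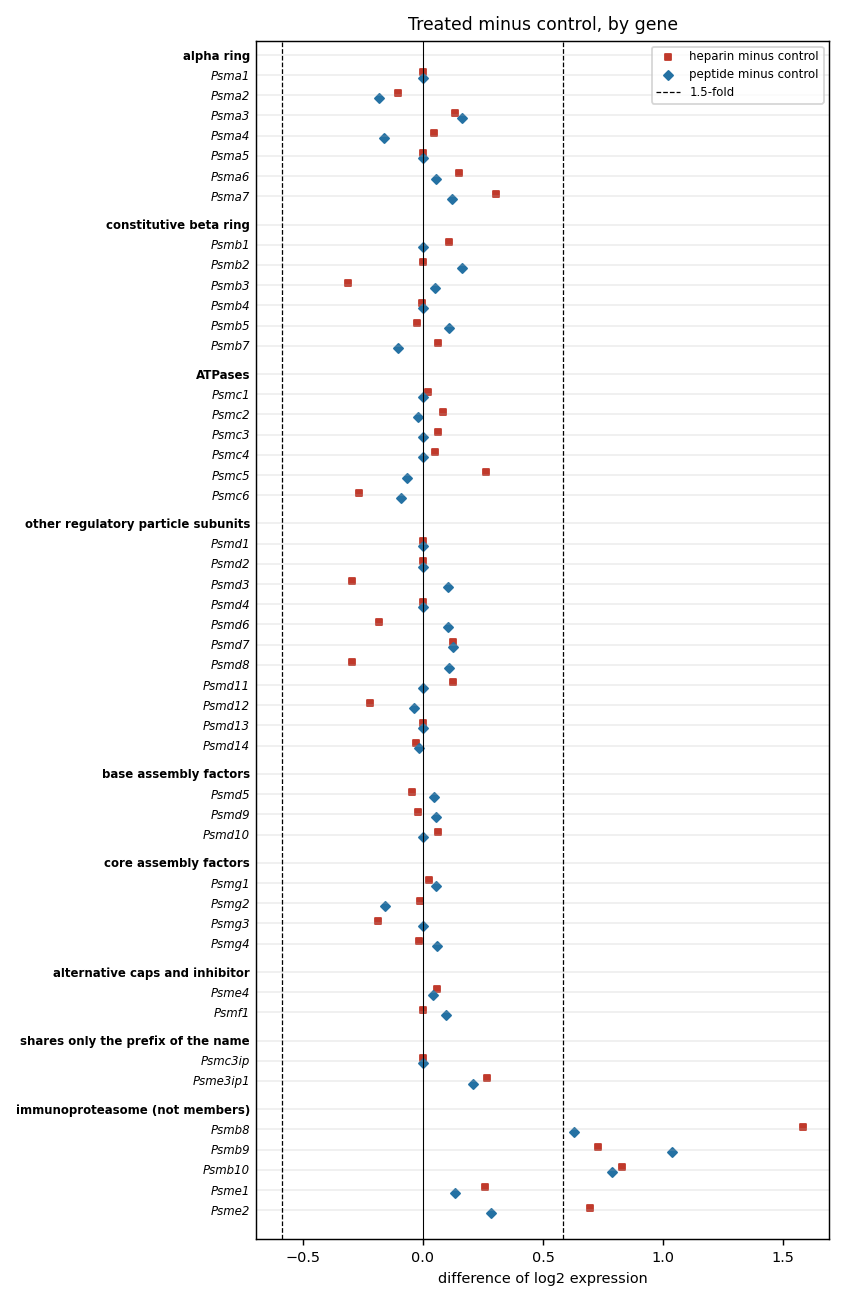
Difference of log2 expression from the control array (horizontal axis) for heparin (squares) and peptide (diamonds), 1 array each, by gene and role, with dashed lines at 1.5-fold. All constitutive proteasome genes lie between -0.31 and 0.31, while 4 of the 5 immunoproteasome genes pass the right line with heparin and 3 with peptide.

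Repeat probe sets give the one check available inside an array. Of the 54 member probe sets 47 were at or above the median on all 3 arrays, and 5 genes had more than 1 such set. Psmc6 had 3, and all 3 were lower in heparin than in control, by -0.27, -0.47 and -0.25, and lower in peptide, by -0.090, -0.30 and -0.063. Both sets of Psmd7 were higher in heparin (0.13 and 0.12) but parted in peptide (0.13 and -0.071). Both sets of Psmd11 were higher in heparin, by 0.12 and 0.031, and those of Psmd14 differed by at most 0.029. The sets of Psme4 did not share a direction in heparin: the one with the highest mean gave 0.059, another 0.00 and the third -0.39, from 7.40 in control to 7.01. Probe sets of a gene share the RNA and the array, so they speak to the probes and not to the pools. Psmd3, Psmd6, Psmd8, Psmd12 and Psmb3, lower in heparin than in control, each rest on 1 probe set. So do Psma7, Psmc5 and Psme3ip1, which were higher.

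**Figure D4:**
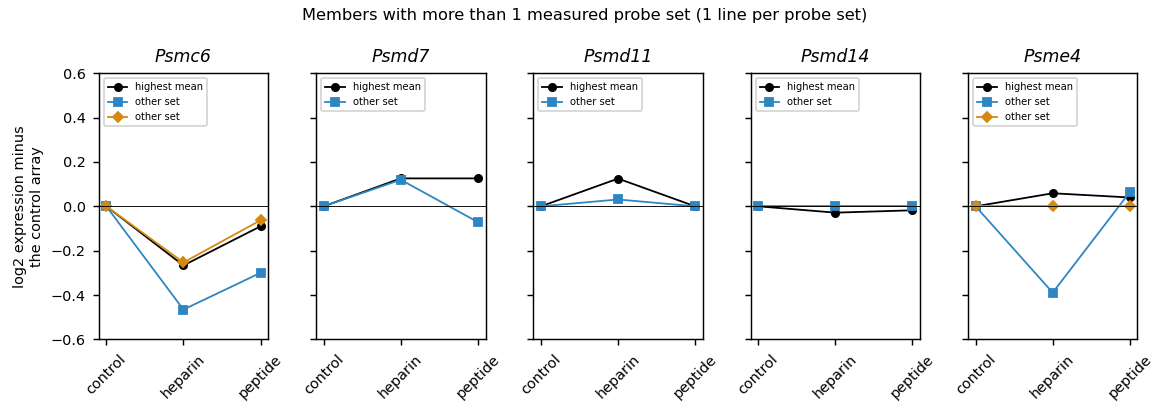
Log2 expression minus the control array (vertical axis) on the control, heparin and peptide arrays for the 5 members with more than 1 measured probe set, 1 line per probe set. The 3 lines of Psmc6 all dip in heparin, whereas 1 of the 3 lines of Psme4 dips by 0.39 and the other two stay near 0.

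The inducible counterparts, measured on the same arrays, differed by more. Psmb8, which replaces Psmb5 in the immunoproteasome, read 7.88 in control, 9.47 in heparin and 8.51 in peptide. Psmb10, which replaces Psmb7, read 7.17, 7.99 and 7.95. Against control Psmb8 differed by 1.58 with heparin and 0.63 with peptide, where Psmb5 differed by -0.026 and 0.11. Psmb10 differed by 0.83 and 0.79, where Psmb7 differed by 0.061 and -0.10. Psmb9 was 0.73 and 1.04 above control. Of the 11S cap genes Psme2 was 0.69 and 0.28 above control and Psme1 0.26 and 0.13. In all, 4 of 5 were at least 1.5-fold higher with heparin, where 3.06% of all measured genes were, and 3 of 5 with peptide, where 2.12% were (2 of 5 with 32 added to the unlogged values). Leukocytes also express these genes, and the summed leukocyte markers were 14.60 in control, 14.82 in heparin and 14.77 in peptide. The highest of these markers read 13.46, 13.95 and 13.50, while the median difference of the 9 measured ones between heparin and control was 0.00, with 4 higher, 2 lower and 3 identical. Their part in the difference was not tested.

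The promoters of these gene pairs differ in the letters they hold, and all 4 are shown because their genes form the contrast above. They are the 250 bases before the transcription start in RefSeq's GRCr8 assembly, 5′ to 3′ on the strand of the gene. Psmb5 lies at chr15:32047380-32047629, Psmb7 at chr3:42827471-42827720, Psmb8 at chr20:4657032-4657281 and Psmb10 at chr19:50743293-50743542, all on the minus strand. Capitals mark matches to TGACNNNGC, the core of the antioxidant response element bound by NFE2L1 and NFE2L2, and to GAAA, any 2 bases and GAAA again, the core of the interferon-stimulated response element.
Psmb5: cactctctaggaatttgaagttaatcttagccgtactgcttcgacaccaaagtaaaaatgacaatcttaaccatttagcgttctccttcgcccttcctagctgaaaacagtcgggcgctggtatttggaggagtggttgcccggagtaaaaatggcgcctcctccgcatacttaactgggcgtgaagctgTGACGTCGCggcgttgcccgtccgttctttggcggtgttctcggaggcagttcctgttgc
Psmb7: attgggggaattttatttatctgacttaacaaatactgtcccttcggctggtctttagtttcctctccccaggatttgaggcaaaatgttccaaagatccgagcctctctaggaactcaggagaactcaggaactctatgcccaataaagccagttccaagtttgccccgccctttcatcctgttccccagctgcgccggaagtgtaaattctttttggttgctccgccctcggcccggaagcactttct
Psmb8: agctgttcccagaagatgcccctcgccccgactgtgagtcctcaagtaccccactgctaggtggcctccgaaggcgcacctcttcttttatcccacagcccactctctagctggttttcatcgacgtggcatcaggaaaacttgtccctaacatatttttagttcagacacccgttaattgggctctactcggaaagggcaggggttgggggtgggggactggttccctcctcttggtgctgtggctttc
Psmb10: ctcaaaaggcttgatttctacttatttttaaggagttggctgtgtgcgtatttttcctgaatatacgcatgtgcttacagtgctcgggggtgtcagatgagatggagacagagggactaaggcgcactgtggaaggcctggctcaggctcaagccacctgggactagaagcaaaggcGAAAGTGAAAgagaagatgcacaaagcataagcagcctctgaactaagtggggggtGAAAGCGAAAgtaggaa
Psmb5 holds 1 antioxidant match, Psmb7 and Psmb8 no match to either motif, and Psmb10 2 interferon matches. On both strands, TGACNNNGC was found in 6 of the 37 member promoters in the table (16.2%), in 0 of 5 immunoproteasome promoters and in 10.2% of all 27457 promoters. The members holding it were Psma3, Psmb2, Psmb5, Psmd1, Psmd9 and Psme4. The interferon-stimulated core was found in 3 of 37 member promoters (8.11%), those of Psma4, Psmb3 and Psmd7, in 2 of 5 immunoproteasome promoters (Psmb10 and Psme2) and in 3.29% of all. CCAAT, the letters bound by NF-Y, was found in 20 of 37 (54.1%), in 1 of 5 and in 34.3% of all. In these promoters 1 pair of matches to different motifs overlapped (CCAAT and TGACNNNGC in Psmb2). Of the 3 members with the interferon letters, Psmb3 was lower in heparin than in control, Psmd7 higher and Psma4 higher by 0.044. In peptide against control Psmb3 and Psmd7 were higher and Psma4 lower, by -0.16. A match describes letters and not a bound site, and the absence of one says only that these letters are not in the window.

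Genes that work with the proteasome were read from lists named by function. Of 10 partners of the proteasome 9 were measured, and against control 0 were at least 1.5-fold higher with either treatment (3.06% and 2.12% of all genes were). Akirin2, an adaptor for nuclear import of proteasomes, was the 1 at least 1.5-fold lower, at 7.04 in control, 6.46 in heparin and 6.93 in peptide (3.36% of all measured genes were that far lower). Its difference of -0.59 became -0.52 after quantile normalization and -0.45 with 32 added to the unlogged values, both short of 1.5-fold. Sem1, given with the lid above, was the partner with the next most negative difference between heparin and control, -0.40. Adrm1, a ubiquitin receptor, read 8.79, 8.69 and 8.89, in the same order as Sem1. Zfand5 read 12.12, 11.84 and 12.12, and its second measured probe set was also lower in heparin, by -0.28. Pomp, the maturation chaperone of the core, and the deubiquitinase Uchl5 were identical on the 3 arrays, and Usp14 and Ecpas spanned 0.23 and 0.011, while 1 of the other measured sets of Ecpas was higher in heparin by 0.18. The probe sets of Txnl1 did not share a direction in heparin: the one of highest mean read 12.46, 12.52 and 12.42 and a second measured set 10.77, 10.52 and 10.69.

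Of 7 regulators of proteasome gene expression, all measured, 5 were lower in heparin than in control, where 44.2% of all measured genes were. Of these 5, 1 was lower by at least 1.5-fold, against 3.36% of all genes. After median centring 6 of the 7 were lower, but that setting moved the median of all genes to -0.020. The 30.1% of all genes that had tied then counted as lower too, although 0 of the 7 regulators had tied. The regulator that changed side was Nfe2l2, which was 0.019 above control on the deposited scale. On the deposited scale all 7 were lower in heparin than in peptide, against 43.7% of all genes. After quantile normalization 6 of the 7 were. Ddi2, the protease that releases active NFE2L1, read 8.21 in control, 7.51 in heparin and 8.56 in peptide, a difference of -0.70 for heparin and 0.35 for peptide against control. Heparin and peptide were 2.07-fold apart. This rests on 1 of its 2 probe sets, since the other was at the lowest array value throughout. With both sets averaged Ddi2 differed by -0.35 between heparin and control, short of 1.5-fold. Averaging in a set that stays at the lowest value shrinks any difference, so the averaged value is no check on Ddi2. Nfe2l1, the transcription factor that restores proteasome genes when the proteasome is inhibited, read 7.73, 7.32 and 7.65, and its second measured probe set was also lower in heparin, by -0.28. Hsf1, the heat shock factor, read 7.76, 7.38 and 7.55, and Foxo1 7.09, 6.74 and 7.21. Stat3 read 10.73, 10.88 and 11.09, highest in peptide, and its second measured set differed from control by -0.0072 in heparin and 0.24 in peptide. Highest in peptide too was Nfe2l2 with 11.10, 11.11 and 11.17. Ngly1, which deglycosylates NFE2L1, spanned 0.076.

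Ubiquitin supply was covered by 2 of 6 genes. Uba1, the main ubiquitin-activating enzyme, read 9.60 in control and 9.67 in both treated pools. Uba6 read 7.54, 7.78 and 7.54, while a further measured probe set of it read 6.73, 6.59 and 5.93, so its probe sets did not share a direction. Of 10 genes that deliver substrates 9 were measured, and 0 were 1.5-fold apart in any comparison. The shares of all genes, 6.42%, 3.04% and 6.21%, each come to less than 1 of 9 genes, so that count says nothing particular to the list. Vcp, the segregase p97, read 11.93 in control and peptide and 12.07 in heparin, and Ufd1, its cofactor, and Ubqln1, a shuttle protein, were identical throughout. Rad23b read 11.39, 11.17 and 11.37, and Faf1 8.76, 8.55 and 8.77, both lowest in heparin. A second measured probe set of Rad23b read 8.81, 7.64 and 8.51, a wider difference in the same order, and averaging both sets put this 1 of the 9 genes at least 1.5-fold lower in heparin than in control.

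**Figure D5:**
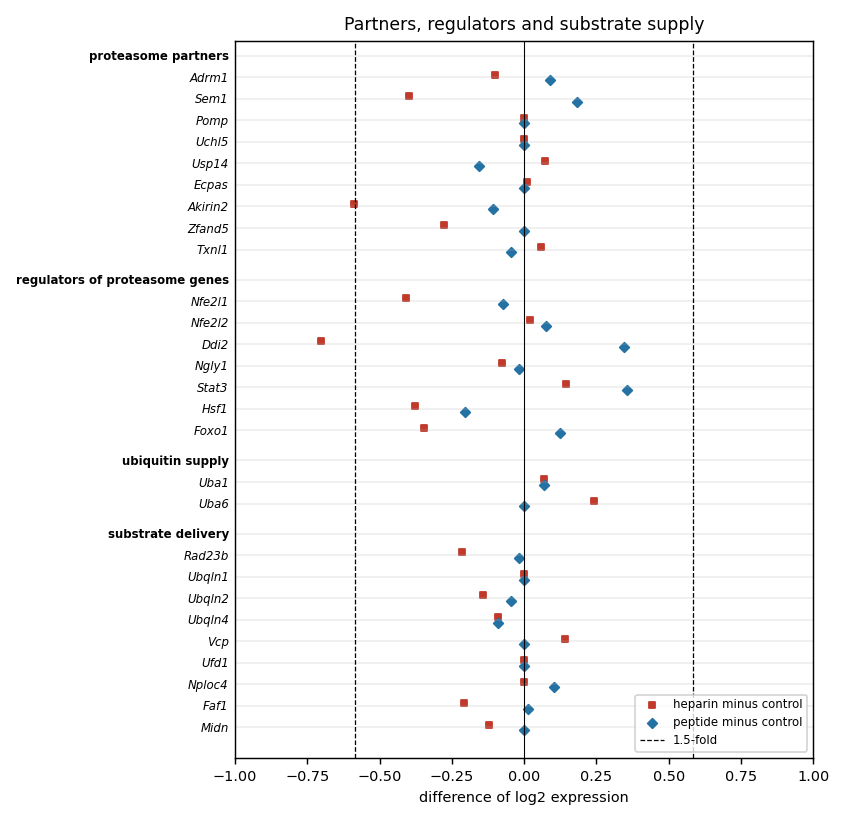
Difference of log2 expression from the control array (horizontal axis) for heparin (squares) and peptide (diamonds), 1 array each, for measured partners of the proteasome, regulators of its genes, ubiquitin-activating enzymes and substrate delivery genes. Only the heparin points of Akirin2 (-0.59) and Ddi2 (-0.70) lie past a dashed 1.5-fold line.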

How the data were processed

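Expression was read on 3 arrays, 1 per group. The authors deposited log2 expression values per probe set, made with GCRMA (no version), per the submitters' processing notes. The sources used here do not say how it was set or whether arrays were normalized to each other. Of 31099 probe sets, 57 were array controls, 20826 others carried 1 gene symbol in the platform annotation, 436 several and 9780 none. Each gene's value is that of its probe set of highest 3-array mean, and all 41 members had the same symbol in the RefSeq gene table (GRCr8). Values were used as deposited, with differences taken between arrays in Python 3.11.15 with pandas 2.3.3. Counting was tested on simulated data. Arrays have no read depth, and their number, 1 per group, limits the precision. Genes to name were every member at least 1.5-fold apart, the catalytic subunits, the 2 members with the largest absolute difference of each role, and the measured genes of the partner lists; other members are named to account for all of them. The members and lists were chosen with earlier results of these data known. The genes of similar signal, the motifs and the repeat probe sets were chosen after values were seen. Alternatives were other normalizations, filters, folds, probe set rules and a pseudocount of 32. 4 members had no promoter in the table used, and 1 result is not reported here.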

Additional observations from a re-analysis of the deposited data

How the results depend on the processing

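The counts of 0 members at least 1.5-fold higher and 0 lower held in each comparison under quantile normalization, median centring and averaging all probe sets of each gene. The other settings could not raise a count of 0. Filters at the 40th and 60th percentile or none added at most Psmc3ip, which read the same on every array. Leaving out _s_at, _x_at and _a_at probe sets removed no highest-mean set of a member. Adding 32 to unlogged values only shrinks differences, and the 30 core 26S subunits are a part of the members. Counted at 2-fold the counts were bound to be 0 too. Counted at 1.2-fold, heparin against control gave 3 higher and 4 lower, and heparin against peptide 1 higher and 4 lower. The members' median ranged over these settings from -0.020 to 0.041 for heparin against control, from -0.011 to 0.00070 for peptide against control and from -0.021 to 0.060 for heparin against peptide, and quantile normalization moved the median of all measured genes by 0.033, -0.0098 and 0.046. Among values of named members under other settings, 382 stayed within 0.1 and 2 moved by 0.1 or more, both of Psme4 with the mean of its probe sets: -0.11 for heparin against control and -0.14 against peptide. Many of the 382 were fixed in advance, so their number does not measure stability. The filters and the leaving out of _s_at, _x_at and _a_at sets returned the deposited value of each named member. Averaging could not move members with 1 probe set. No paired analysis was possible because each group is 1 array, and for the same reason no replicate could be left out. Signal over background limited Psmc3ip, which lay below the median on every array.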
